A study of Mus musculus with 8 samples.

Results

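Peaks of the transcription factor KLF13 that cluster on the same gene are described here. They are the lines of the deposited peak list whose assigned gene occurs on 3 or more lines, after runs of low-fold peaks on chromosomes X and 11 and at Mir101c were left out. The genes were thus chosen by the number of peaks the authors called on them, and the rule gave 993 of 9506 peaks, assigned to 286 of 7800 genes. They include 274 of the 21887 protein-coding genes of the RefSeq table, or 1.25%, a share that the rule itself sets. Of these genes, 285 had 3 or more peaks left, and Pisd-ps1 had 1 left after its other peaks went with the chromosome 11 run. Values per gene below are over the 285 genes. Since the number of peaks per gene chose them, the folds and positions are descriptions, and no test was made.

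The cells were HT22, an immortalised line derived from mouse hippocampus, engineered to make the biotin ligase BirA stably. All were transfected with the plasmid pTO-Klf13Bio, which makes KLF13 in a form that BirA biotinylates, and chromatin was taken 24 h later. Chromatin streptavidin precipitation (ChSP), a pulldown of biotinylated protein with its crosslinked DNA, gave 4 libraries, and the same transfected cells gave 4 input libraries with no precipitation. Both groups carried BirA and the KLF13 plasmid. With no pulldown from cells lacking tagged KLF13 among the samples used here, binding of KLF13 and any other capture by streptavidin cannot be told apart. The labels do not say whether libraries of a group came from separate cultures. KLF13 came from a transfected plasmid, so these are sites of introduced and not of endogenous protein. Each peak has 1 fold of ChSP over input and 1 p-value, both the authors', over all 8 libraries. The spread between libraries and the read depth are therefore unknown for every value below.

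KLF13 is a zinc finger protein of the KLF and Sp family, whose members bind GC boxes and CACCC elements, mostly in promoters rich in the dinucleotide CG. With its close relative KLF9 it belongs to the subgroup that recruits the SIN3 corepressor, and both are studied in neurons as regulators of neurite growth. Peaks of 1 gene can lie at several transcription start sites (TSS), side by side at 1 promoter, or in introns and the DNA around the gene. The list assigns every peak to the gene with the nearest TSS, so a distant peak counts for a gene without evidence that it acts on it.

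The promoters of the 3 genes with the highest folds show the sequences under such peaks. They are RefSeq windows on GRCm38.p6 from 250 bases before to 50 bases after a gene start, shown 5′ to 3′ on the gene's strand. Capitals mark GGGCGG, the core of the GC box, and CACCC, each on either strand. Matches of both motifs can share bases at their ends. Tcf7l2, which encodes a transcription factor of the Wnt pathway, had peaks over 2 starts within a span of 155 kb, and Rap1gap, which encodes a protein that switches off the small GTPase RAP1, had peaks over 3 starts. Taf4, a subunit of the general transcription factor TFIID, had its high fold at 1 start.
Tcf7l2 upstream start, chr19:55741560-55741859, plus strand, under the fold of 70.1: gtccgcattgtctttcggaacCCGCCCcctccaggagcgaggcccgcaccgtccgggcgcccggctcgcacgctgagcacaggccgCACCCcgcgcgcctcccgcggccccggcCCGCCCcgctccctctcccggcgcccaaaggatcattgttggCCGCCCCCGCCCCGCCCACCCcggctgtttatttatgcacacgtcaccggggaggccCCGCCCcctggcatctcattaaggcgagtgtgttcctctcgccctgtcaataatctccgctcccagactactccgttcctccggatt
Tcf7l2 downstream start, chr19:55895071-55895370, plus strand, fold 24.2: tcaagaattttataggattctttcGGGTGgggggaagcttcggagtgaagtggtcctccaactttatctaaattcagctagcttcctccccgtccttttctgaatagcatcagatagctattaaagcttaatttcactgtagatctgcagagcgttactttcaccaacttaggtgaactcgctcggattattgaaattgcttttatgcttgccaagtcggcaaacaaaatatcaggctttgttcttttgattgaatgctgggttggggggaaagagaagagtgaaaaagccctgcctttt
Rap1gap downstream start, chr4:137707217-137707516, plus strand, fold 61.1: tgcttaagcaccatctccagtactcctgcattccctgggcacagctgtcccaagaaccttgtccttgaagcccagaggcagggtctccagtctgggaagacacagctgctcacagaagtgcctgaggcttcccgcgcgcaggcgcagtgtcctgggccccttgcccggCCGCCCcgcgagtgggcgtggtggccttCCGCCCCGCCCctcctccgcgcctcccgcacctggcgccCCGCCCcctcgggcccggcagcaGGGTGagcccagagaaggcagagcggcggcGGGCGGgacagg
Rap1gap upstream start, chr4:137664476-137664775, plus strand, fold 20.7: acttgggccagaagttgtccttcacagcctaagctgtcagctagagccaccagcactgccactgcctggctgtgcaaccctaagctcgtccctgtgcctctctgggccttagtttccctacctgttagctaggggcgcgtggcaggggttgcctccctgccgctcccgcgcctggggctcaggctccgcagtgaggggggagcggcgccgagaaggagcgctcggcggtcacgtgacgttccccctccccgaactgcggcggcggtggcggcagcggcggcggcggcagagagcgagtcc
Rap1gap middle start, chr4:137681353-137681652, plus strand, fold 20.7: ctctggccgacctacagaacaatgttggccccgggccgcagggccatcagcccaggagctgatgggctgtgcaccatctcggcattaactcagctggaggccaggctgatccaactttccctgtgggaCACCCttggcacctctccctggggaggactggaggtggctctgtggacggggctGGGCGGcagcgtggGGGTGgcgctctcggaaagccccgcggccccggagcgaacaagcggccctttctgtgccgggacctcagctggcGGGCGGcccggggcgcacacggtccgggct
Taf4, chr2:179976597-179976896, minus strand, fold 59.2: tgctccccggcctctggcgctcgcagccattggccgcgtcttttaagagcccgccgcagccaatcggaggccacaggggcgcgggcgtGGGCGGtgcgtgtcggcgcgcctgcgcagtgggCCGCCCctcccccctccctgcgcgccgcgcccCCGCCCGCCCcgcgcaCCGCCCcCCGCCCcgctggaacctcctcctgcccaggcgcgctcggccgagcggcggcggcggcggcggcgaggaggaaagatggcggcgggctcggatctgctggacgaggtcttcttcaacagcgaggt

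In both genes with several starts the window under the highest fold held the most GC boxes. The upstream Tcf7l2 window held 6 matches of GGGCGG and a GC content of 70%, while the downstream window held 0 and 42%. Its peak covered only the last 70 bases of that window. At Rap1gap the downstream start held 5 matches, and the upstream and middle ones, whose folds were both 20.7, held 0 and 2. The 3 Rap1gap windows had similar GC contents, from 68.7% to 70.7%. The Taf4 window held 6 matches and no CACCC.

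The 993 peaks lay away from start sites more often than other peaks in the list. Within 1 kb of a TSS were 464 of them, or 46.7% (exact 95% binomial interval 43.6 to 49.9, counting error only). Among genes with 2 peaks the share was 63.9% (1193 of 1867 peaks), and among genes with 1 peak it was 90.3% (5930 of 6565). The rule bears on these shares, since each gene adds 3 or more peaks to the first group and 2 or 1 to the others. Counted per gene, a peak within 1 kb was present in 92.6% of 285 genes. It was present in 89.5% of 933 genes with 2 peaks and 90.3% of genes with 1. Over a TSS lay 263 of the 993 peaks (26.5%), against 75.6% for genes with 1 peak. Distal intergenic peaks made up 18.3% (182 peaks), introns 9.87% (98), exons 7.55% (75) and 3′ UTRs 4.43% (44). The same classes held 3.64%, 1.52%, 1.43% and 0.564% of the peaks of genes with 1 peak.

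**Figure D1:**
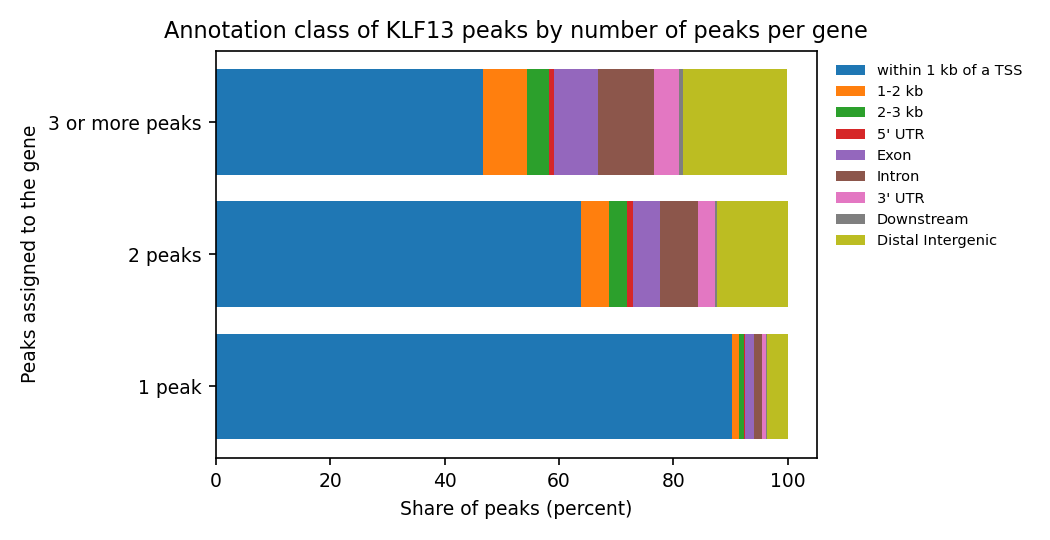
Share of peaks in percent (x axis) by the authors' annotation class, for genes with 1, 2, or 3 or more peaks (y axis). The blue part, within 1 kb of a TSS, falls from 90.3% to 63.9% and 46.7%, and the distal intergenic part grows from 3.64% to 12.4% and 18.3%. Shares are over peaks and not over genes, and the number of peaks per gene sets the groups.

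Peaks on these genes were also narrower and had lower folds. Their median fold was 18.7 (quartiles 14.3 and 23.5), against 19.5 for genes with 2 peaks and 22.2 for genes with 1. The median widths were 500, 600 and 700 bp. Within distance classes the difference went either way. Peaks over a TSS had a median fold of 22.2 on these genes and 24.2 on genes with 1 or 2 peaks, while those 10 to 100 kb from a TSS had 17.9 and 17.7. At 1 to 1000 bp from a TSS the medians were 17.8 on these genes and 17 on the others. Peaks 1 to 3 kb away had a median of 15.8 on these genes and 17.7 on the others. Peaks 3 to 10 kb away had a median fold of 19 on these genes and 17.2 on the others. The 46 peaks beyond 100 kb had a median of 13.6, against 15.9 on the others, with quartiles of 6.31 and 21, which include the low-fold peaks assigned to Lrrc4c.

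**Figure D2:**
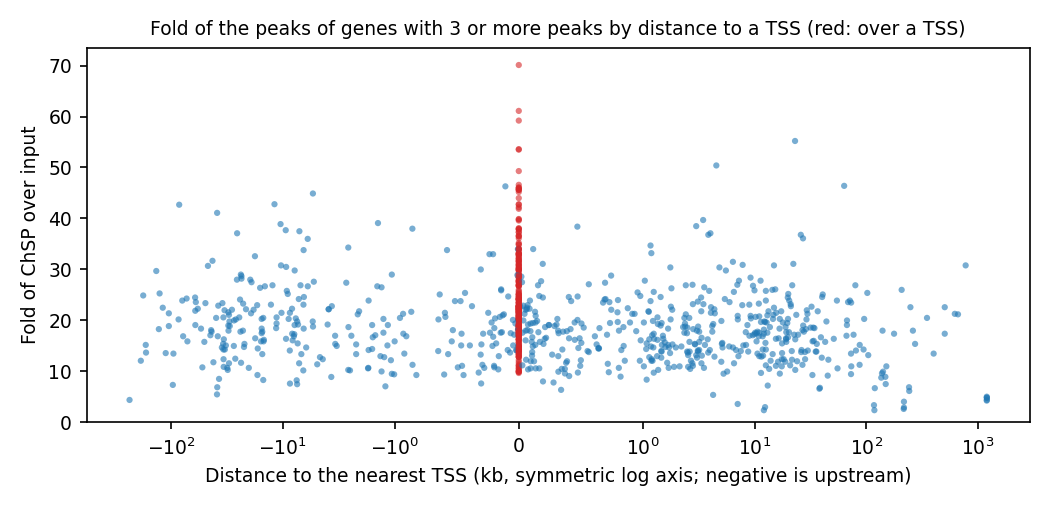
Fold of ChSP over input (y axis, linear ratio) against distance to the nearest TSS in kb (x axis, symmetric log scale, negative is upstream) for all 993 peaks, with peaks over a TSS in red. Folds above 60 occur only at peaks over a TSS, and distant peaks reach 55.2.

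Many of the peaks were close neighbours. Of 707 gaps between adjacent peaks of a gene, 257 (36.4%) were under 1 kb, 183 were 1 to 10 kb, 211 were 10 to 100 kb and 56 were 100 kb or more, and the median gap was 3700 bp. When peaks closer than 1 kb were merged, 151 of the 285 genes still had 3 or more separate loci, 106 had 2 and 28 had 1. Genes that kept 3 loci had a median highest fold of 26.9 and a median span of 40.9 kb from the first to the last peak. The other 134 had 23.5 and 15.2 kb. Most genes in both sets had a promoter peak, 141 and 123. Among the 4753 peaks of smallest p, 22 genes had 3 or more peaks.

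Between 3 and 13 peaks were assigned to a gene. Exactly 3 peaks were assigned to 197 genes, 4 to 59, 5 to 19, 6 to 6 and 7 to 3, and Bcor stood alone with 13. Transcription factors of development, a corepressor subunit and synaptic and adhesion proteins make up most of the 10 named genes with the most peaks.

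Bcor (ENSMUSG00000040363), the BCL6 corepressor, a subunit of a variant Polycomb complex, had 13 peaks over 353 kb of chromosome X with folds from 11.7 to 38.9, and 11 loci after merging. Its highest fold was in an intron at chrX:12091101-12092000, at -10.5 kb from the nearest start (negative distances are upstream), and the peak over that start had 30.1.

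Pax2 (ENSMUSG00000004231), a paired box factor of kidney, eye and midbrain development, had 7 peaks across 85.5 kb, nearly all upstream of the gene's annotated start. The peak over that start had a fold of 22.5, and the highest fold, 42.7, lay at -84.8 kb, chr19:44672001-44672600 in intergenic DNA. Between them the folds were 24.3, 21.6, 14.8, 30.8 and 19.1. The peak of fold 30.8 fell inside the RefSeq bounds of Pax2, although the deposited annotation gives it as intergenic. The peaks of 30.8 and 19.1 also overlapped RefSeq windows around starts of Pax2, so upstream is meant here by the deposited start only. The strongest Pax2 signal was thus the one farthest from the start.

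Casz1 (ENSMUSG00000028977), a zinc finger factor of heart and retina development, had 7 peaks over 229 kb. None overlapped a TSS, and the peak nearest to a start, 0.109 kb downstream, had the lowest fold, 16.7. A pair of neighbouring intronic peaks had 23.3 and 27.8, and the intergenic peaks at -61.1 and -79.6 kb had 24.5 and 23.9. A further peak in the 3′ UTR had 17.7.

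Zfp423 (ENSMUSG00000045333), a zinc finger factor of cerebellar and fat cell development, also had 7 peaks, but 5 of them stood side by side around 1 start. Their folds were 22.1, 30, 16.9, 23.9 and 10.2, and with the intronic and the upstream intergenic peak the gene came to 3 loci. Tbx1 (ENSMUSG00000009097), a T-box factor of pharyngeal development, had 6 peaks in 7.3 kb. The 5 peaks around its starts had folds of 13.3, 15.7, 17.6, 21.3 and 15.7, the 3′ UTR peak had 22.6, and 2 loci were left after merging. Bcl11b (ENSMUSG00000048251), a zinc finger factor of T cells and corticospinal neurons, had 4 peaks at its promoter with folds of 14.4 to 19.5, an intronic peak of 17.2 and an exonic one of 11.3. In all 3 genes 4 or more peaks stood around 1 promoter region.

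Rnf220 (ENSMUSG00000028677), a RING ubiquitin ligase gene, had 6 peaks over 208 kb and occupied starts at both ends. The peak over the inner start had a fold of 36.1 with the authors' p of 1.91e-29, and the peak over the outer start had 18.9. Shank3 (ENSMUSG00000022623), a scaffold protein of excitatory synapses, had 6 peaks within 59.6 kb, in turn 9.53, 29.3, 13, 13.9, 10.4 and 17.3, along the gene from its first start to its 3′ UTR. Its highest fold was over the start that lies first. Adgrb1 (ENSMUSG00000034730), an adhesion G protein-coupled receptor of neurons and phagocytes, had 6 peaks with folds from 14.1 to 20.3, and the highest was in the 3′ UTR. Cdkn1c (ENSMUSG00000037664), an imprinted inhibitor of cyclin-dependent kinases, had 5 peaks within 27.9 kb. The peak over its TSS had a fold of 45.6, the peak just inside the gene 19.6, and the intergenic ones 31.1, 22.5 and 22.8.

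**Figure D3:**
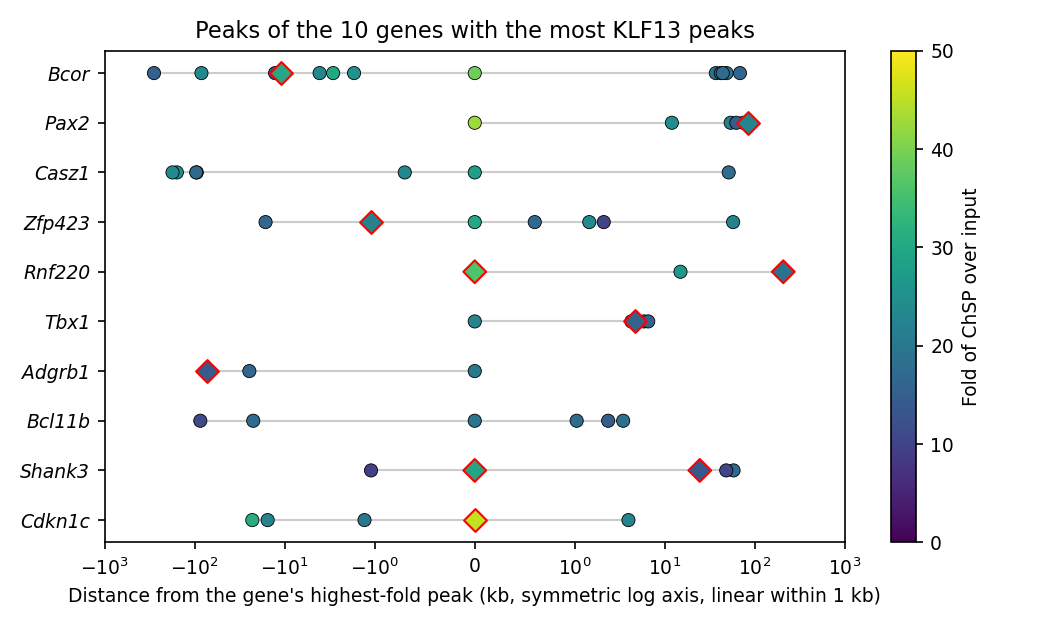
Position of each peak in genome order as distance in kb from the gene's highest-fold peak (x axis, symmetric log scale, linear within 1 kb) for the 10 named genes with the most peaks (y axis), coloured by fold, with red diamonds for peaks over a TSS; markers of close peaks hide each other. The highest-fold peak overlaps a TSS in Rnf220, Shank3 and Cdkn1c and does not in the other 7 genes. In Bcl11b and Zfp423, among these 7, it lies within 1 kb of a TSS.

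Distances here are to the starts of the deposited annotation. The highest-fold peak of a gene was not always at a promoter, but was there more often than peaks of these genes in general. It was within 1 kb of a TSS in 163 of 285 genes (57.2%, exact 95% interval 51.2 to 63), in 124 (43.5%) it overlapped a start, and in 64 (22.5%) it lay more than 10 kb away. Some of these far peaks overlapped RefSeq windows around starts of the same gene, as at Olfm2 (32.6 at -17.8 kb) and Begain (26 at 14.4 kb). Such RefSeq starts do not enter the distances. Of all 993 peaks, 46.7% were within 1 kb of a TSS and 26.5% overlapped a start. Another 24.4% lay 10 to 100 kb from a TSS and 4.63% over 100 kb. At least 1 peak within 1 kb of a TSS was present in 264 genes (92.6%). In 155 genes there were 2 or more, and in 24 every peak was that close. Folds within a gene differed by modest ratios in most genes, and the highest was at least 4 times the lowest in 15. Over all 993 peaks the quartiles of the fold were 14.3 and 23.5, and whether folds are more alike within genes was not tested. The median highest, second and lowest fold were 25, 19.4 and 13.5, the median ratio of the highest to the second was 1.27 and that of the highest to the lowest was 1.9. The highest fold was at least 2 times the second in 34 genes, and under 1.2 times the second in 120.

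Hes1 (ENSMUSG00000022528), the repressor gene that Notch signalling switches on, had a higher fold away from its promoter. Its promoter peak had a fold of 38, the next 24.6, and an intergenic peak 4.54 kb past the start, at chr16:30069901-30070800, had 50.4. Apba1 (ENSMUSG00000024897), a neuronal adaptor protein gene, had 32.9 over its TSS, 55.2 in an intron 23 kb downstream and 29 in a 5′ UTR at -23.8 kb from the nearest start. Egr1, an immediate early transcription factor of neurons, had 33 and 18.3 at its promoter and 36.8 at 25.9 kb downstream. Other genes had their high fold at the promoter alone. Fzd5 (ENSMUSG00000045005), a Wnt receptor, had 49.3 over its TSS and 9.76 and 10.5 just downstream. Taf4 had 59.2 over its TSS, 14.5 and 17.9 inside the next kb, and 9.96 at a peak 141 kb from the nearest start in an intron of the cadherin gene Cdh4.

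Peaks of a gene were spread over very different lengths. The span was up to 10 kb in 72 genes, 10 to 100 kb in 155 and over 100 kb in 58, with a median of 28.5 kb. The median highest folds of these classes were 23.1, 24.6 and 27.2, and the medians of the remaining peaks 15.2, 17 and 17.2. The share of peaks over a TSS was alike, 28.4%, 26.2% and 25.1%. Gene length rose with span, with medians of 10.8, 36.3 and 177 kb. Over all 286 genes the median length was 37 kb, against 34.2 kb for genes with 2 peaks, 30.2 kb for genes with 1 and 17.2 kb for all 21887 protein-coding genes of the RefSeq table.

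**Figure D4:**
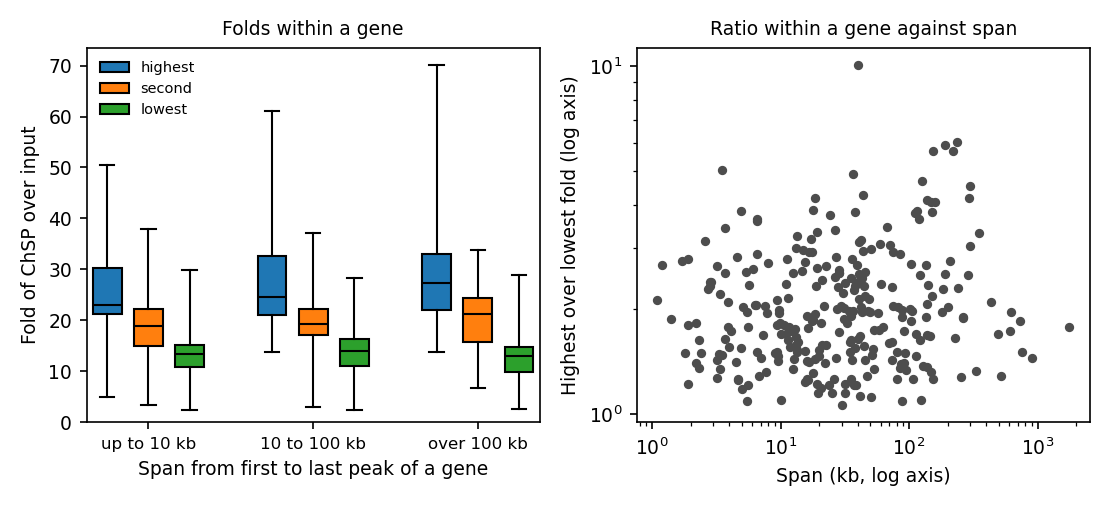
Left, the highest, second and lowest fold of each gene (y axis) by span class (x axis); boxes are quartiles with the median line and whiskers reach the extremes over 72, 155 and 58 genes. Right, the ratio of highest to lowest fold (y axis, log) against the span in kb (x axis, log) for the 285 genes; the largest ratio is 10.1 and the smallest 1.06.

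Of named genes, leaving out unnamed gene models such as 5730507C01Rik with 902 kb, these had the widest spans. Ptprd, a receptor phosphatase of synapses, had peaks 1763 kb from end to end, with folds of 18.9 in an intron and 10.6 and 18.2 at a promoter. Camta1, a calmodulin-binding transcription factor, had 25.1 and 38 over separate starts and 25.4 beside the latter, 755 kb in all. The junction scaffold Magi1 spanned 619 kb with folds of 22.6, 11.5 and 21.7, and the teneurin adhesion gene Tenm3 615 kb with folds of 13.7 to 23.9. Mecom, which encodes a zinc finger factor of blood stem cells, spanned 519.5 kb with folds of 25.6, 22.3 and 19.8. The narrowest spans were close to the width of a peak. Cecr2, a bromodomain protein of chromatin remodellers, had folds of 13, 27.7 and 14.6 within 1.1 kb. Srd5a2, Gng8, Spns2 and Adra2c had spans of 1.2 to 1.8 kb, and all 5 came to 1 locus after merging.

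Several starts of the same gene were occupied in 42 genes (14.7%), of which 2 had peaks over 3 starts. One was Rap1gap. The other was Nol4l (ENSMUSG00000061411), with 21.5, 28.4 and 36.5 over its 3 starts. Lmo4, a LIM-only cofactor of transcription in neurons, had 27.9 and 42.7 over starts within a 7.8 kb span. Mxi1, an antagonist of MYC, had 27.7 and 38.1. Dst, a linker of cytoskeletal filaments whose isoforms differ by tissue, had 30.4 and 26.8 over separate starts and 22.8 in an intron, within 329.5 kb. Mir9-3hg, the host transcript of a miR-9 gene of neural progenitors, had 32.1 and 26.8 and a pair of intergenic peaks with 25.2 and 13.8. Phospho1, a phosphatase of bone mineralisation, had 53.5 and 26, but the start under the higher fold belongs to a long transcript model and lies outside the RefSeq bounds of the gene. Foxp1, Pik3r1, Sptbn4 and Tcf7l2 had occupied starts too. At Sptbn4, a spectrin of the axon initial segment, they had folds of 53.6 and 22.5.

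Promoter windows under these peaks were rich in GC boxes. A window was in the RefSeq table for 218 of the 286 genes (76.2%), too few to speak for the set, so the counts are over windows and not over genes. Of 285 windows overlapped by a peak of the 286 genes, 222 (77.9%, exact 95% interval 72.6 to 82.6) held GGGCGG on either strand, against 82.6% of 6215 windows overlapped by any other peak and 35.7% of all 32851 windows. Of 121 windows of the 286 genes with no peak over them, 42.1% held it. The 285 windows include those of neighbouring genes, since 220 windows of the 286 genes were overlapped by a peak of their own gene. CACCC was in 70.5% of windows under these peaks, 67.5% under other peaks, 57.5% of all windows and 65.3% of those of the 286 genes without a peak. In the same order the median GC content was 70%, 68.7%, 52.7% and 56.3%. The part of base composition in the motif shares was not tested. The remaining motifs had shares under these peaks of 3.16% for TGACGTCA, the cAMP response element, 2.81% for GCGCATGC of NRF1, 8.77% for CCGGAAG of ETS factors and 29.8% for CCAAT. Over all windows they were 1.79%, 2.71%, 8.86% and 37.4%. Under other peaks they were, in the same order, 2.8%, 5.41%, 14.1% and 29.9%.

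The median fold rose with the number of GC boxes, with wide overlap. Quartiles were 15.1 and 23.8 without a match and 20 and 32.3 with 3 or more. The parts of GC content and peak width were not tested. With 1 window per peak, the median fold was 19.1 over 35 peaks without GGGCGG in the window, 21.4 over 39 with 1 match, 22.1 over 43 with 2 and 24.2 over 81 with 3 or more. In 28 genes windows lay under different peaks. The window under the highest of these folds had more matches than that under the lowest in 17 genes, fewer in 4 and as many in 7. Gnas had 3 matches under 31.1 and 0 under 14.9, Nfatc2 4 under 23.9 and 0 under 18.2, and Lhx2 4 under 20 and 0 under 17.4. Pax2 went the other way with 0 under 30.8 and 1 under 19.1, and Gata2 had 1 under 20.4 and 3 under 15.7. These genes were picked after their values were seen.

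Developmental transcription factors had the highest share among the 15 gene lists. Of 50 homeobox, SOX, forkhead and GATA factor genes 17 (34%) had 3 or more, against 1.25% of all protein-coding genes and 49 of 456 genes over the lists. Of the same 50 genes, 13 had 2, 12 had 1 and 8 had 0. The list was written with earlier results of these data known, and its count uses the same peaks that chose the genes. Cux1, a homeobox factor of upper-layer cortical neurons, had 41.9 over its TSS, 21.2 and 10 beside it and 19 in its 3′ UTR. Foxp1, a forkhead factor of striatal and cortical neurons, had 39.1 upstream of a start and 23 and 29.8 over its starts. Zfhx3 had 37.7 at -9.44 kb, 28.5 over its TSS and 26.9 in an exon. Foxo3, Pax3, Irx5, Lhx2, Foxc1 and Sox2 followed with highest folds from 33.1 down to 26.9. Of 30 genes of NFI, TEAD, RUNX and nuclear receptor factors 5 (16.7%) had 3 or more. Nr2f1 and Nr2f2, orphan receptors that pattern the cortex, had highest folds of 45.7 and 46.3. Nfib, a factor of glial and lung development, had 37.5 at -7.12 kb and 33.2 over its TSS.

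Words in the gene names of the deposited annotation gave a further grouping, one chosen after the values were seen. Of 7785 genes with a peak outside the left-out runs 3.66% had 3 or more. Of 36 genes named as forkhead box 11 had 3 or more (30.6%), of 119 named as homeobox 18 (15.1%), of 9 as T-box 3, of 12 as PR domain 3 and of 5 as paired box 2. Outside transcription factors, 3 of 10 adhesion G protein-coupled receptor genes (30%), 4 of 21 named as fibroblast growth factor (19%) and 3 of 17 as wingless (17.6%) had 3 or more. Genes named as zinc finger had 3 or more in 14 of 272 (5.15%). Genes with the word kinase in the name, which include the inhibitor Cdkn1c, had 3 or more in 10 of 377 (2.65%). Likewise, the homeobox count includes the opposite-strand transcript Six3os1, and the fibroblast growth factor count the receptor gene Fgfr3. Neither 40 genes named as ribosomal protein nor 82 as mitochondrial included a gene with 3 or more. The homeobox genes' 64 peaks had a median fold of 19.1, with 37.5% within 1 kb of a TSS, and the forkhead genes' 39 peaks had 19.3 and 46.2%. Foxe1, Otp, Hmx1, Lbx1, Barhl1, Uncx and Dmbx1 belong here, factors of thyroid, hypothalamus, sensory organs, spinal cord and brain.

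**Figure D5:**
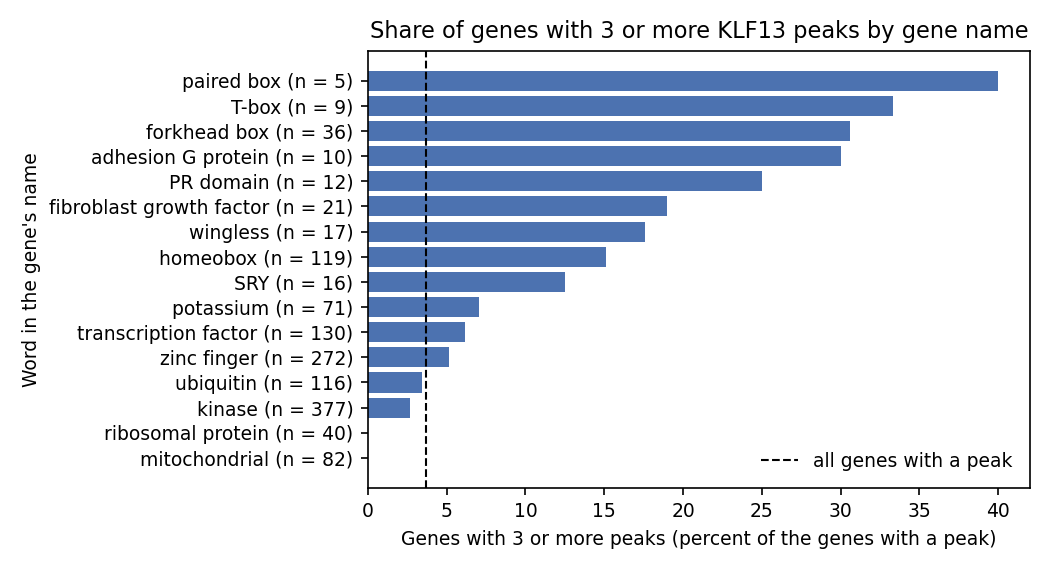
Percent of genes with a peak that had 3 or more peaks (x axis) by a word in the gene's name (y axis, with the number of genes with a peak); the dashed line marks 3.66% for all genes with a peak. Forkhead box genes stand at 30.6% and homeobox genes at 15.1%, and ribosomal protein and mitochondrial genes at 0.

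Signalling genes with several peaks stood in several lists. Their counts are to be read beside 1.25% of all protein-coding genes and 3.66% of genes with a peak. Over the lists, 49 of 456 genes had 3 or more. Of 30 Wnt pathway genes 5 (16.7%) had 3 or more, namely Tcf7l2, Fzd5, Lef1, Lrp5 and Wnt7b. Lef1, a nuclear effector of the pathway, had 22.2 and 15.4 upstream and 10.8 near its TSS. Of 23 Notch genes 3 (13%) did: Hes1, the ligand gene Dll1 with 18.6, 10.3 and 10.7 in 1 locus, and the coactivator gene Maml3 with 10.7 to 15.8 in 1 locus. Of 29 TGF-beta and BMP genes only Smad7 (3.45%), the inhibitory SMAD, had 3 or more. Its folds were 45.9 over its TSS, 27.8 and 18 downstream of it and 24.1 upstream. Of 34 growth factor, JAK-STAT and PI3K genes Pik3r1 and Jak1 (5.88%) had 3 each. Pik3r1, the regulatory subunit of PI3 kinase, had 25.5 and 20.2 over its starts and 22 upstream. Jak1 had 24.4 over its TSS, with 14.1 and 12.5 in an intron and upstream.

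Chromatin genes had 3 or more peaks in 4 of 40 (10%), against 1.25% of all protein-coding genes and 49 of 456 over the lists, and these were Bcor, Chd7, Cbx8 and Smarca2. Chd7, a remodeller mutated in CHARGE syndrome, had 16.8, 19.4 and 20.9 at its promoter and 31.7 and 23.9 at intergenic sites at -42.7 and 54.5 kb from the nearest start. Cbx8, a Polycomb subunit, had 13.9 at a peak annotated as just downstream, although its centre lay inside the RefSeq bounds of the gene. The other Cbx8 peaks had 15.9 and 20.3 upstream, and the gene had no promoter peak. Of 26 KLF and Sp genes, Klf4, Klf9, Sp8 and Sp5 (15.4%) had 3 or more. Klf9 had 33 over its TSS, 12.1 beside it and 11.4 at -4.93 kb, and Klf4 had 45.2 over its TSS and 22.5 and 11 at -119 and 17.5 kb. Sp8 had 25.8 at -9.23 kb and 21.6 over its TSS.

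Neuronal and cytoskeletal lists held 2 such genes each. Of 38 axon guidance genes 5.26% had 3 or more, of 28 synapse and ion channel genes 7.14% and of 31 cytoskeleton and adhesion genes 6.45%, against 1.25% of all protein-coding genes and 3.66% of genes with a peak. The netrin receptor gene Unc5a had 28.9 and 23.9 at its promoter and 31.5 in an intron, and Ntn1, which encodes netrin, had 18.6 over its TSS, 19.9 beside it and 23.1 at -12.8 kb. The calcium channel gene Cacna1a had 24.1 and 15.1 at its promoter and 14.3 and 15.6 in exons, and the sodium channel gene Scn8a had 15.1 and 19.2 at its promoter and 11.3 in an exon. The cytoskeletal genes were Dst and Macf1. Macf1, which links microtubules to actin, had 31.7 over a TSS, 21.2 upstream of another and 8.26 in an intron.

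The assigned gene was not always the gene a peak lay in. By RefSeq bounds 681 peaks (68.6%) had their centre inside the assigned gene, 59 (5.94%) inside another protein-coding gene and 253 (25.5%) in neither. Where the annotation named the gene of an intron or exon, in 154 peaks, 22 were in another gene than the assigned one. All 3 peaks of Shkbp1 lay in exons of Sptbn4, with folds of 44.9, 16.1 and 26.4, beside the 3 peaks assigned to Sptbn4 itself. All 3 peaks of Gng8, a G protein gamma subunit, lay inside Dact3, a Wnt regulator, with folds of 24.6, 14.7 and 27.6. The 3 peaks assigned to Mir6977 lay in Ptprs. Peaks assigned to Mir6417 had folds of 26.9, 11.2 and 24.5, and the first 2 of them had their centres inside Ppargc1a, the coactivator of mitochondrial biogenesis. Among 21 genes with no peak within 1 kb of a TSS these were the leading cases with Arhgap23, whose folds were 15.4, 30.5 and 17.6, and Pax3, whose folds were 27.8 in an intron and 21.4 and 10.7 upstream.

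Genes just inside and just outside the limit had similar median highest folds. The 197 genes with exactly 3 peaks had a median highest fold of 24.5 and lowest fold of 13.9, and the 933 genes with exactly 2 had 24.2 and 15.7. The spans were 25 and 5.8 kb. A promoter peak was present in 90.9% and 89.5%, and several starts were occupied in 13.2% and 9.86%. These values are not like for like, since each is taken over 3 peaks per gene or over 2. More peaks per gene can by themselves raise the highest fold, lower the lowest and widen the span. They also give more chances of a promoter peak or of several occupied starts. Whether the genes differ beyond the number of peaks was not tested. Apba1, Hes1 and Nr2f2 had the highest summed folds among genes with 3 peaks, and Nfil3, Rcan3 and Zfp516 among those with 2. Nr2f2 had 46.3, 33.9 and 28.4, and Nfil3, a repressor of clock output genes, had 86 and 41.9.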

How the data were processed

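The data are KLF13 ChSP and input libraries of HT22 cells, given as 1 peak list over all 8 libraries. The submitters' processing notes list HOMER 4.9.1, ChIPseeker 1.16.1, BWA 0.7.17-r1188, FastQC 0.11.3 and the build GRCm38, with no roles. PePr appears in the name of the deposited list, while no source used here gives its version or settings. The fold is a linear ratio of ChSP over input that the authors computed with a scaling of libraries that no source used here states. The authors also gave the p-value and adjusted p-value of each peak, the largest p being 9.99e-06. A deposited score, proportional to the fold, went unused. Widths (in steps of 100 bp), coordinates and distances are columns of the authors' annotation. Read depth is unknown.

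Peaks were counted per assigned gene. Shares have exact 95% binomial intervals for counting error, and medians intervals from order statistics. Intervals over peaks treat the peaks of a gene as independent and can be too narrow. Genes were matched by identifier to a RefSeq gene table (286 of 286) and a RefSeq promoter table, both on GRCm38.p6. Counting and merging were tested on simulated lists. No genome sequence was used, so peaks away from gene starts have no sequence here. The members, gene lists and tables were chosen with earlier results of these data known. Named genes follow a rule, unnamed gene models skipped: the 10 with the most peaks, the 8 with the highest fold, the 6 with the highest second fold over different starts, the 5 widest and 5 narrowest spans, the 5 highest folds without a promoter peak, 3 per gene list, and the 3 highest summed folds at 3 and at 2 peaks. Any other gene was picked with its values in view. The tools were scipy 1.17.1, numpy 2.4.6, pandas 2.3.3 and matplotlib 3.10.9 under Python 3.11.15.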

Additional observations from a re-analysis of the deposited data

How the results depend on the processing

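No paired analysis was possible because each peak has only 1 value for all libraries together, and for the same reason no library could be left out in turn. With the 4753 peaks of smallest p, 22 genes and 68 peaks were left, with a median fold of 26.3, 50% of peaks within 1 kb of a TSS and 95.5% of genes with such a peak. Merging peaks closer than 1 kb left 151 genes with 495 loci, a median fold of 19.8, 40.2% of loci within 1 kb of a TSS, 35.1% of genes with 2 or more of them and a median span of 40.9 kb. Asking for 4 or more peaks left 88 genes and 401 peaks, with a median fold of 18.1, 40.4% of peaks within 1 kb of a TSS, 96.6% of genes with 1 or more and 61.4% with 2 or more such peaks, and a median span of 40 kb. With the low-fold runs kept the median fold was 18.2. At 3 kb the share of peaks near a TSS was 58.3% and that of genes with 2 or more was 71.2%. These settings change the set of peaks or the distance by construction, and no other cause was tested. With merging, a locus took the highest fold and the shortest TSS distance of its peaks. Its values are thus not like for like with those of single peaks. Leaving out the 5% widest peaks or the unnamed gene models kept every one of the 7 values within its interval, or within 1.5 times for counts.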

Other observations

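The counts for the remaining gene lists follow. Beside them, 1.25% of all protein-coding genes and 3.66% of genes with a peak had 3 or more peaks. Neither the 24 circadian clock genes nor the 17 genes of dual specificity phosphatases and Sprouty proteins had any, although 4 and 3 of them had 2 peaks. Of 24 AP-1, EGR and other immediate early genes only Egr1 had 3 or more, while 10 had exactly 2. Of 32 cAMP signalling genes only Gnas did, the gene of the stimulatory G protein alpha subunit. It had 14.9 over a TSS, 31.1 within 0.193 kb of another, and 13 and 13.2 at 1.34 and 2.54 kb from a further start. Over the 15 lists, 49 of 456 genes had 3 or more peaks, and 236 genes with 3 or more were in no list.

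Some assigned genes held low-fold peaks that the rule kept. All 5 peaks of Lrrc4c, a synaptic adhesion gene, had folds of 4.28 to 5.05 in 5 kb of intergenic DNA about 1195 kb from its start. The 3 peaks of the vomeronasal receptor gene Vmn1r238 had folds of 2.4 to 6.72 at 117 to 119 kb from its start. These were the only 2 genes with every fold under 10, and 6 genes had a lowest fold under 5. Among them Gm6194 had folds from 2.65 to 15.1 and Tmem267 from 3.62 to 16.9. The 70 left-out peaks had a median fold of 4.54 and ranged from 2.1 to 32.6.

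The share of a chromosome's peaks that fell on genes with 3 or more peaks, outside the left-out runs, was 17.4% on chromosome 19 (59 of 339), 14.5% on chromosome 4 and 14.4% on chromosome 2, and 3.73% on chromosome 9 (19 of 509). On the other chromosomes with such peaks it lay between 6.38% and 14%, and over the whole list 993 of 9506 peaks fell on such genes.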
